A study of Mus musculus with 6 samples.

Results

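The genes described here encode the enzymes that give fatty acids their double bonds and their length. They are the 10 genes of the deposited matrix named Scd1, Scd2, Fads1, Fads2, Fads3, Elovl1, Elovl2, Elovl3, Elovl5 and Elovl6, chosen by name out of 56534 genes and loci: 5 desaturases and 5 elongases. Each name had 1 row. RNA of whole liver from C57BL/6 mice was sequenced in 6 libraries. The 3 control libraries (CON 1 to 3) came from animals labelled wild type, and the 3 knockout libraries (LKO 1 to 3) from animals labelled CD36-/-, in which the series title places the loss of CD36, a transporter of long-chain fatty acids, in hepatocytes. All animals had been fed a high-fat diet (HFD) with 60% of its energy as fat for 16 weeks, so no group shows these genes on another diet. The driver of the deletion, the sex and age of the animals, the time of collection and whether a library holds 1 animal or several were not stated in the labels. The p-values thus measure spread among libraries, which may be partly technical.

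Fatty acid synthase releases mainly palmitate, a saturated acid. The elongase ELOVL6 lengthens palmitate to stearate, and the stearoyl-CoA desaturases (SCD) place the first double bond in both, which yields palmitoleate and oleate, the main monounsaturated acids of liver triglyceride. Polyunsaturated acids of the linoleate and alpha-linolenate series cannot be made from these in mammals. They come from dietary linoleate and alpha-linolenate, which FADS2 and FADS1 desaturate and ELOVL5 and ELOVL2 lengthen in alternation to arachidonate and docosahexaenoate. ELOVL1 and ELOVL3 make very long saturated and monounsaturated chains. In liver, many of these genes are known targets of the transcription factor SREBP-1 (gene Srebf1) and of nuclear receptors of the LXR and PPAR families, and polyunsaturated acids are known to repress Scd1, Fads1 and Fads2.

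Some family members are close copies, which matters for how far their values can be told apart. In RefSeq's order of genes (GRCm38.p6), Scd1 to Scd4 lie side by side with 0 other coding genes between them, and so do Fads1, Fads2 and Fads3. The coding sequences of Scd1 (355 codons) and Scd2 (358 codons) were 89.6% identical in an alignment of GENCODE M21 transcripts. Fads1 and Fads2 shared 66.4%, Fads2 and Fads3 69.7%, Elovl2 and Elovl5 63.2%, and Elovl3 and Elovl6 58% of aligned bases. The longest run that Scd1 and Scd2 share spans 147 bases, coding bases 523 to 669 of Scd1 and 532 to 678 of Scd2 counted from the start codon. It is shown because a read inside it cannot be assigned to either gene.
Scd1 and Scd2, shared run: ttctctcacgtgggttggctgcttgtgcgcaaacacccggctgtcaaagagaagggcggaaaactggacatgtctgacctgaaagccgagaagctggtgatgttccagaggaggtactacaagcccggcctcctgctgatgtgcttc
The least alike stretch of 60 coding bases holds 24 differences, in capitals, at coding bases 79 to 138 of Scd1 and 88 to 147 of Scd2.
Scd1, least alike stretch: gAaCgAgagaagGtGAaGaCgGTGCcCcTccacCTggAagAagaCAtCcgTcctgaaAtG
Scd2, least alike stretch: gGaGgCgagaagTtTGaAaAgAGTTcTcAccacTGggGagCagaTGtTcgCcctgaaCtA
Of all stretches of 50 bases in the longest coding transcript, 4.66% in Scd1 and 4.01% in Scd2 also occur in another gene. The share was 0.161% in Fads2, 0.137% in Fads3, 4.59% in Elovl6, where the other genes lie outside the family, and 0% in Fads1, Elovl1, Elovl2, Elovl3 and Elovl5. The values below are fragments scaled by gene length and by the library's mapped fragments (FPKM), so levels can be compared between genes. The deposited length equals that of the longest coding transcript in GENCODE M21 for 10 of the 10 genes, from 1811 bases for Elovl1 to 5951 for Elovl6. The labels do not say whether counting used strand. Exons of Elovl1, Elovl3 and Elovl6 overlap 53, 10 and 34 bases of genes on the other strand, which are Cdc20, Pitx3 and Gm35986.

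The RefSeq promoter table, which gives 250 bases before to 50 after each start site, held 6 of the 10 genes: Fads2, Fads3, Elovl1, Elovl2, Elovl5 and Elovl6. Scd1, Scd2, Fads1 and Elovl3 had no entry. The 3 promoters below belong to genes known as SREBP-1 targets, and Srebf1 itself had lower values in the LKO libraries, as given further on. Searched on both strands were the sterol element TCACNCCAC, the E-box CACGTG, the CCAAT box and the GC box GGGCGG. Matches are in capitals, each sequence is written 5′ to 3′ on the gene's strand with the coordinates of GRCm38.p6, and no match overlaps another in the promoters shown.
Fads2, chr19:10101454-10101753, minus strand: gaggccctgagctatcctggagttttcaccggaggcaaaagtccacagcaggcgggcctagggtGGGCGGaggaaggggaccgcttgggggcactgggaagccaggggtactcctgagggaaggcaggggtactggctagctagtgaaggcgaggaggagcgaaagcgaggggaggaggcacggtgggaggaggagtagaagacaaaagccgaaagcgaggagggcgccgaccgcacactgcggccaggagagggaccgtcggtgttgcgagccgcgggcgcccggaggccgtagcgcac
Elovl5, chr9:77917115-77917414, plus strand: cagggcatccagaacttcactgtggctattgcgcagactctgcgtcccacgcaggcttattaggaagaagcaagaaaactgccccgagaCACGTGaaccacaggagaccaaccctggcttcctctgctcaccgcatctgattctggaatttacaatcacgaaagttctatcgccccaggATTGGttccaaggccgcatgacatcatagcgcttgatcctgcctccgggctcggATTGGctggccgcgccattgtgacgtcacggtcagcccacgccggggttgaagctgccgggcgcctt
Elovl6, chr3:129532136-129532435, plus strand: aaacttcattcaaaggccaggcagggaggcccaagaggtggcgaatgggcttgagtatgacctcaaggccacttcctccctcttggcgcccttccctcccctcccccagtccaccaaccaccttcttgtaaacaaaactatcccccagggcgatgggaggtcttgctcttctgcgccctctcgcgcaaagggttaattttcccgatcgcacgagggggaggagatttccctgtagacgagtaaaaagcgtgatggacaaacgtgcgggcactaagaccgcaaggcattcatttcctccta
TCACNCCAC matched none of the 6 genes' windows and 1.24% of all 32851 promoters of that length. The E-box was found in Elovl5 alone among the 6, starting at base -161 from the start site, and in 7.15% of all promoters. Elovl5 also held 2 CCAAT boxes, starting at bases -71 and -17, a motif found in 37.4% of all promoters. Fads2 held 1 GC box, starting at base -186, against 35.7% of all promoters, and Elovl6 held no match to any of the 4 motifs. A match describes the letters of the window only.

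The libraries differed in ways that touch every gene below. The summed FPKM of a library ran from 831928 to 976871 in CON and from 959442 to 1271880 in LKO. The mitochondrially encoded genes took 3.88% to 6.18% of it in CON and 4.14% to 10.1% in LKO, and the major urinary protein genes 6.22% to 22.1% and 23.9% to 29.4%. LKO 3 stood closer to the CON libraries than to its own group: the Pearson r of its log2 values over all tested genes was 0.952 to 0.976 with the CON libraries, and 0.949 and 0.934 with LKO 1 and LKO 2. A library's deviations from the mean of all libraries were related to gene length, with a Spearman rho across genes of -0.33 and -0.30 in LKO 1 and LKO 2, and of 0.10 to 0.29 in CON and LKO 3. Cd36 was at 61.95, 26.49 and 19.66 FPKM across CON 1 to CON 3, and at 2.73, 3.70 and 10.22 FPKM across LKO 1 to LKO 3. Every LKO library was thus below every CON library, with LKO 3 the nearest (log2 fold change -2.50, limma adjusted p = 0.163). The hepatocyte markers were abundant in every library, with Alb at 16410 to 45751 FPKM. In bulk liver, fewer cells of a type and less RNA per cell cannot be told apart.

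In CON, the order by mean FPKM was Scd1, Fads2, Elovl5, Elovl2, Elovl3, Fads1, Elovl1, Elovl6, Fads3 and Scd2. The first 6 genes lay between a mean of 121 and 423 FPKM, above 93.1% to 97.6% of tested genes, and the ranges of neighbours overlapped throughout. The last 4 did not overlap with their neighbours: Elovl1 at 19.3, Elovl6 at 4.93, Fads3 at 1.94 and Scd2 at 0.560 FPKM on average. These 4 kept places 7 to 10 in every library of both groups, and the changes of place were all among the first 6. In LKO the order was Elovl3, Elovl5, Fads2, Elovl2, Scd1, Fads1, and then the same 4. Elovl3 moved from place 4 to 6 in the CON libraries to place 1 or 2 in the LKO libraries.

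**Figure D1:**
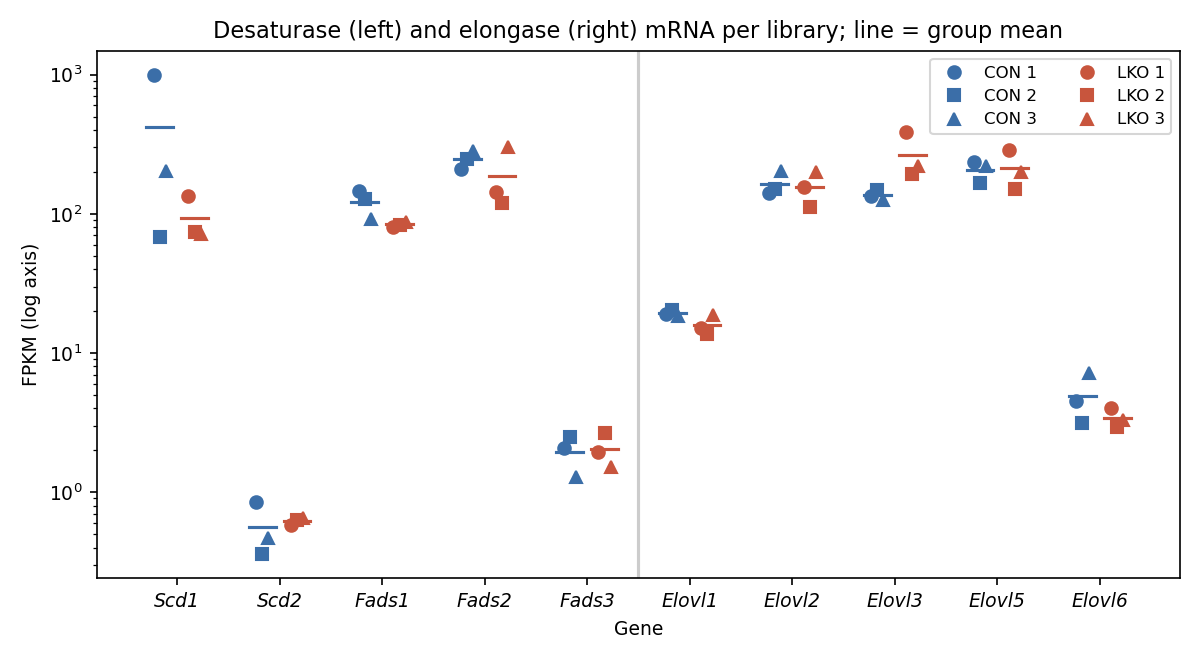
FPKM (log axis) of the 5 desaturase and 5 elongase genes in each library, CON in blue and LKO in red, with a line at the group mean of 3 libraries. Only Fads1 and Elovl3 show groups that do not overlap, and Scd1 spreads from 68.20 to 998.53 FPKM within CON.

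The comparison of LKO with CON asks how loss of the fatty acid transporter in hepatocytes relates to these enzymes under high fat feeding. None of the 9 genes that could be tested passed the threshold of 0.05 (limma on log2(FPKM + 1), adjusted over 11104 genes). Over all genes 1 passed, 0.00901% of those tested. At an unadjusted p under 0.05, Elovl3 was higher and Fads1 lower, where 3.25% of all tested genes were higher and 18.9% lower. Elovl3 and Fads1 were also the only members whose groups did not overlap, which held upward for 3.92% and downward for 24.3% of all tested genes. The median log2 fold change of the 9 genes was -0.28, against -0.23 over all tested genes, and 7 of the 9 were negative, where 71.6% of all tested genes were. After median-ratio scaling, which evens out the libraries' typical level, both medians were near 0 (0.00038 for the 9 genes, 0.01 for all), 4 of the 9 were negative, and so were 48.9% of all genes. With that scaling Elovl3 alone among the 9 had an unadjusted p under 0.05, where 10.2% of all tested genes were higher and 7.96% lower. Scd2, the 10th gene, had a mean of 0.590 FPKM over the 6 libraries and was left out by the filter at a mean of 1.

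**Figure D2:**
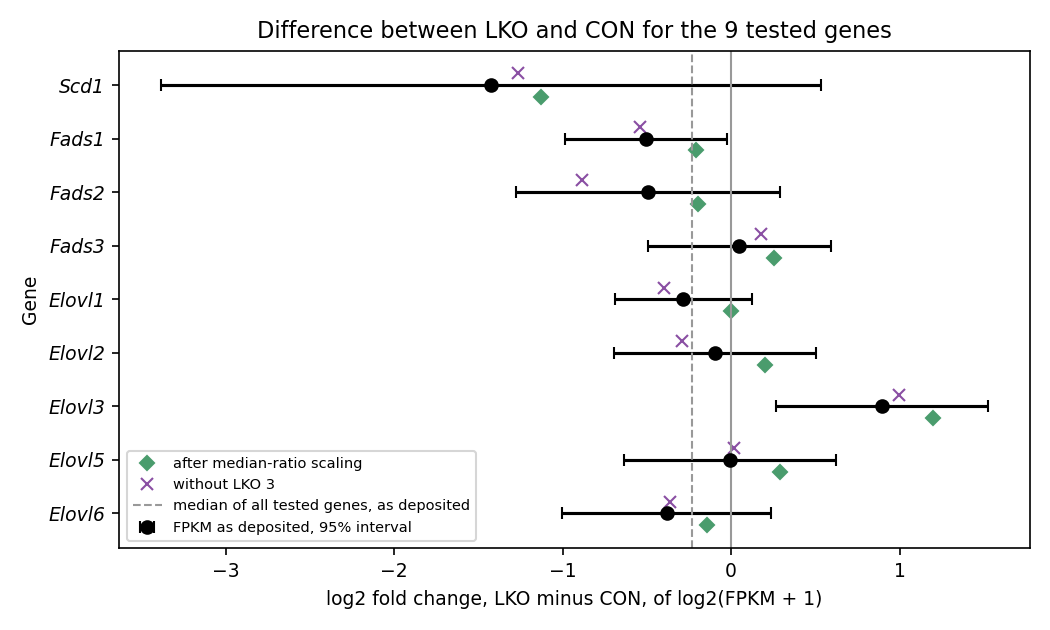
Log2 fold change of LKO minus CON for the 9 tested genes on the log2(FPKM + 1) scale, with its 95% interval (black, 3 libraries a group), after median-ratio scaling (green diamonds) and without LKO 3 (purple crosses). Scd1 has the widest interval, from -3.38 to 0.53, Elovl3 is to the right of 0 under all 3, and Elovl1, Elovl2 and Elovl5 cross 0 with the scaling.

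Scd1 (ENSMUSG00000037071), the main stearoyl-CoA desaturase of liver, was at 998.53, 68.20 and 203.25 FPKM across CON 1 to CON 3. The LKO values were 134.95, 73.41 and 71.07 FPKM across LKO 1 to LKO 3. CON 1 stood far above all other libraries, while CON 2 was below all 3 LKO libraries, so the groups overlapped. The range within CON was 14.6-fold, against 1.90-fold within LKO. On the log2(FPKM + 1) scale only 33 of the 11104 tested genes, Scd1 among them, were as widely spread within CON (0.297%). CON averaged 423 ± 503 FPKM and LKO 93.1 ± 36.2 FPKM (SD over 3 libraries a group). Its difference of -1.43 on the log2 scale (SE 0.84, 95% interval -3.38 to 0.53) had an unadjusted limma p of 0.131. It did not pass over all genes (limma adjusted p = 0.322). Without CON 1 it was -0.40 and without CON 2 -2.33, and over all alternatives the adjusted p ran from 0.203 to 0.695.

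The level of Scd1 in CON 1 was set beside markers of cells that also express it. Adipocytes are rich in SCD, and of 5 adipocyte markers 3 (Lep, Retn and Ucp1) were listed at 0 in all 6 libraries. Adipoq and Plin1 were at 0.09 FPKM or less throughout. The summed level of the 5 was 0.01 to 0.04 FPKM in CON, with 0.01 in CON 1, and 0.01 to 0.11 FPKM in LKO. Cd36 (61.95 FPKM), Srebf1 (15.91 FPKM) and Acly (20.47 FPKM) were likewise highest in CON 1, as were Acaca, Me1 and Slc25a1, which like Acly supply palmitate synthesis. The typical level of all genes was also highest there. The factor by which median-ratio scaling divides a library was 1.19 in CON 1 and 0.794 to 1.12 in the others. Fasn, the fatty acid synthase, was highest in CON 3, as were Acacb and Elovl6. Within CON, Fasn was lowest in CON 1 (16.04 FPKM, against 18.09 and 19.95 FPKM in CON 2 and CON 3). Fads2 was also lower in CON 1 than in CON 2 and CON 3. By the distance between log2 profiles over the 6 libraries, the tested genes most like Scd1 were Gm27390, Gm43078 and Gm37746, 3 predicted genes at 7.82, 6.35 and 9.29 FPKM in CON 1. The first 2 were listed at 0 in every other library, and Gm37746 was at 4.88 FPKM in CON 3 and listed at 0 in the remaining 4. Their distances were 1.40 to 1.46. These genes reached the mean of 1 FPKM needed for testing through CON 1, or CON 1 and CON 3, alone.

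Scd2 (ENSMUSG00000025203), the form best known from brain, was at 0.85, 0.36 and 0.47 FPKM in CON 1 to CON 3 and at 0.58, 0.63 and 0.65 FPKM in LKO 1 to LKO 3. The LKO values lay within the CON range. The highest value fell in CON 1, as for Scd1, and the lowest in CON 2. Since 4.01% of its 50-base stretches occur elsewhere, the shared run shown above among them, how much of this low signal came from Scd1 was not tested. Per library, Scd1 was 109 to 1175 times Scd2. On the log2(FPKM + 1) scale the difference between the 2 genes was 7.29 ± 1.71 in CON and 5.80 ± 0.55 in LKO (SD, n = 3 each), a change of -1.49 (exact permutation test, two-sided, p = 0.2). With 3 libraries against 3 the smallest p possible is 0.1, and over the 4 within-library ratios examined the adjusted p was 0.6. The change was -0.60 without CON 1, -2.30 without CON 2 and -1.31 with median-ratio scaling. Scd2 was under 1 FPKM in every library, so the added 1 outweighs it in this difference. The change therefore mostly restates that of Scd1 itself (-1.43). The other 2 genes of the cluster, Scd3 and Scd4, which are known from skin and heart, were at 0.04 FPKM or less in all libraries.

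Fads2 (ENSMUSG00000024665), the first and rate-limiting desaturase of the polyunsaturated pathway, was at 209.55, 247.26 and 281.02 FPKM across CON 1 to CON 3. The LKO values were 144.35, 120.01 and 299.61 FPKM across LKO 1 to LKO 3. LKO 1 and LKO 2 were under the lowest CON value, while LKO 3 had the highest of the 6. CON averaged 246 ± 35.8 FPKM and LKO 188 ± 97.4 FPKM (SD over 3 libraries a group), a log2 fold change of -0.49 (SE 0.34, 95% interval -1.28 to 0.29, limma adjusted p = 0.380). Without LKO 3 it was -0.89 (SE 0.19, adjusted p = 0.0259), in a fit where 2115 genes (19.0% of those tested) passed lower and 511 (4.6%) higher. Without LKO 2 it was -0.23 (adjusted p = 0.752) and without LKO 1 -0.36 (adjusted p = 0.634). LKO 1 and LKO 2 also share the length trend given above. With LKO 3 left out and that trend removed, Fads2 was at -0.52 with an adjusted p of 0.117, and with median-ratio scaling in its place also at -0.52, with an adjusted p of 0.109. Over all alternatives its adjusted p ran from 0.00382, with array weights whose fit did not converge and rested mostly on LKO 1 within LKO, to 0.752.

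The genes whose profile was most like that of Fads2 were Rrm2, a subunit of ribonucleotide reductase, Hsp90ab1, a constitutive heat shock chaperone, and Nmd3, a ribosome export factor. Hsp90ab1 was at 590.35, 757.97 and 775.98 FPKM in CON 1 to CON 3 and at 461.82, 362.91 and 844.04 FPKM in LKO 1 to LKO 3. It shared with Fads2 the low values in LKO 1 and LKO 2 and the highest value in LKO 3. Their distances were 0.184 for Rrm2, 0.186 for Hsp90ab1 and 0.204 for Nmd3.

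Fads1 (ENSMUSG00000010663), which desaturates the chain a second time after elongation, was at 145.00, 127.65 and 91.54 FPKM across CON 1 to CON 3. The LKO values were 80.37, 83.30 and 87.86 FPKM in LKO 1 to LKO 3. All LKO libraries were below all CON libraries, but CON 3 was close to LKO 3. CON averaged 121 ± 27.3 FPKM and LKO 83.8 ± 3.77 FPKM (SD over 3 libraries a group), a ratio of LKO to CON of 0.691. The log2 fold change of -0.50 (SE 0.21, 95% interval -0.98 to -0.02) had an unadjusted p of 0.0416 and did not pass over all genes (limma adjusted p = 0.215). It was -0.21 after median-ratio scaling (unadjusted p = 0.353). Over all alternatives its adjusted p ran from 0.0213, with the same array weights, to 0.662.

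Fads1 and Fads2, neighbours that act in 1 pathway, did not move together from library to library. Fads1 was 0.692, 0.516 and 0.326 times Fads2 in CON 1 to CON 3 and 0.557, 0.694 and 0.293 times Fads2 in LKO 1 to LKO 3. The ratio was lowest in CON 3 and LKO 3 and did not separate the groups (log2 difference of LKO minus CON -0.01, exact permutation test, p = 1). Fads3 (ENSMUSG00000024664), a relative whose substrates are less well established, was at 2.08, 2.47 and 1.28 FPKM in CON 1 to CON 3 and at 1.95, 2.65 and 1.51 FPKM in LKO 1 to LKO 3. The groups overlapped fully, with a log2 fold change of 0.05 (SE 0.23, 95% interval -0.49 to 0.59, limma adjusted p = 0.907). Any difference inside that interval is compatible with these libraries, so Fads3 is not shown to be unchanged.

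**Figure D3:**
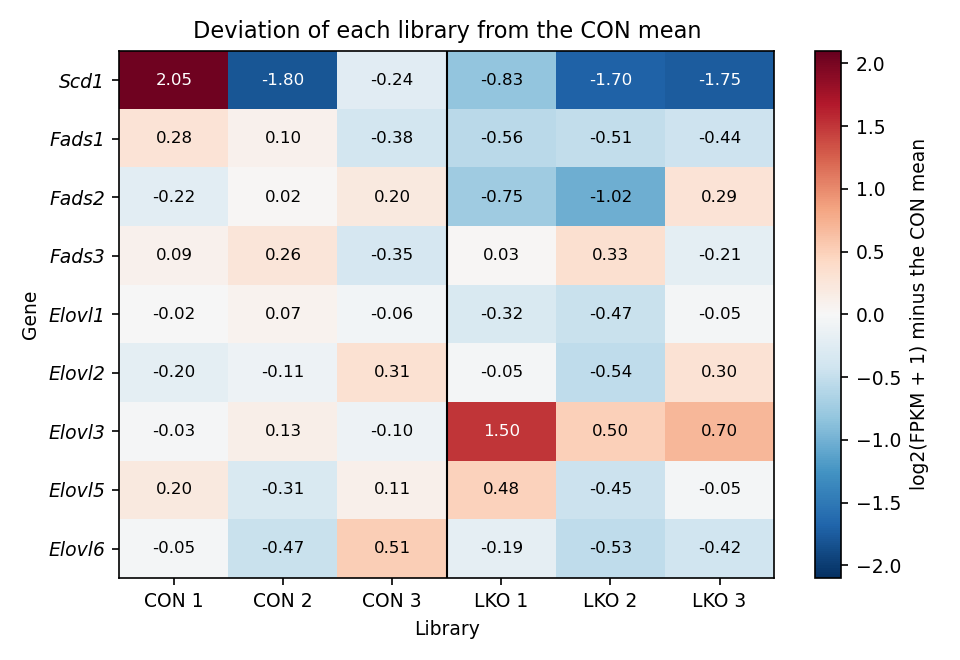
Deviation of each library from the CON mean, as log2(FPKM + 1), for the 9 tested genes (rows) in CON 1 to LKO 3 (columns), red above and blue below. Elovl3 is above 0 in the 3 LKO libraries (0.50 to 1.5) and Fads1 below 0 in them (-0.44 to -0.56), while Fads2 is low in LKO 1 and LKO 2 and not in LKO 3.

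Elovl3 (ENSMUSG00000038754), an elongase of saturated and monounsaturated chains known from skin, brown fat and male liver, was at 133.21, 148.71 and 126.47 FPKM across CON 1 to CON 3. The LKO values were 385.12, 192.66 and 220.50 FPKM in LKO 1 to LKO 3. Every LKO library was above every CON library, LKO 1 by the widest margin. The CON libraries were close to each other, with a range of 1.18-fold, against 2.0-fold in LKO. CON averaged 136 ± 11.4 FPKM and LKO 266 ± 104 FPKM (SD over 3 libraries a group), a 1.95-fold difference. The log2 fold change of 0.90 (SE 0.27, 95% interval 0.27 to 1.53) had an unadjusted p of 0.0112 and did not pass over all genes (limma adjusted p = 0.180). It was 1.20 after median-ratio scaling (adjusted p = 0.258) and 0.60 without LKO 1 (adjusted p = 0.440). Elovl3 passed without LKO 3 (log2 fold change 1.0, adjusted p = 0.0495), where with the length trend also removed it did not (1.12, adjusted p = 0.0513) and with median-ratio scaling it did (1.37, adjusted p = 0.0290). Without LKO 3, 4.6% of all tested genes passed higher, and with that scaling 1265 of 11104 did. Over all alternatives the log2 fold change of Elovl3 ran from 0.60 to 1.46 and its limma adjusted p from 0.00142 to 0.486. The values 1.46 and 0.00142 came from array weights, whose fit did not converge. These weights were 13.8 for LKO 1, the library with the most Elovl3, against 0.350 for LKO 2 and 0.196 for LKO 3.

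Elovl3 is known as a gene with a daily rhythm and a male bias in liver, so both kinds of genes were read beside it. Dbp, a clock output gene, was at 55.11, 54.35 and 93.56 FPKM in CON 1 to CON 3 and at 4.98, 61.57 and 28.51 FPKM in LKO 1 to LKO 3. Arntl, which peaks at the opposite phase to Dbp, was highest in LKO 1 (4.36 FPKM, against 0.80 to 2.24 FPKM elsewhere), the library where Elovl3 was also highest. Among male-biased genes, Cyp7b1 was at 56.52, 128.70 and 303.72 FPKM in CON 1 to CON 3 and at 371.93, 149.32 and 360.68 FPKM in LKO 1 to LKO 3. Cyp2d9, another male-biased gene, was at 1301 to 1395 FPKM in CON and 1135 to 1375 FPKM in LKO. None of the 13 tested genes of this list passed. All 7 clock genes lay below 0 on the log2 scale, Arntl only just (-0.02), where 71.6% of all tested genes did. With median-ratio scaling 6 did, as Arntl turned to 0.17, where 48.9% of all tested genes did. Of the 6 male-biased genes 5 lay above 0, the side of Elovl3, or 6 with that scaling, which turned Cyp2d9. The smallest p values were those of Per2 (-0.84), Per1 (-0.50), both clock repressors, and the male-biased Cyp4a12a (0.92), with limma adjusted p of 0.180, 0.216 and 0.237. The part of collection time and sex in the Elovl3 difference was not tested.

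Elovl6 (ENSMUSG00000041220), which lengthens palmitate and is a well known SREBP-1 target, was at 4.53, 3.13 and 7.14 FPKM in CON 1 to CON 3 and at 3.99, 2.94 and 3.28 FPKM in LKO 1 to LKO 3. The LKO values lay at the lower end of the CON range or just under it, and the groups overlapped. On the log2 scale LKO differed by -0.38 (SE 0.27, 95% interval -1.0 to 0.24, limma adjusted p = 0.389), and -0.14 after median-ratio scaling. It was -0.13 without CON 3 and -0.61 without CON 2. The most similar profiles were those of Bmp4, a growth factor, Acacb, the acetyl-CoA carboxylase that restrains fatty acid oxidation, and Pdgfa, a growth factor, at distances of 0.250 to 0.278. Acacb was at 2.46, 1.69 and 4.0 FPKM in CON 1 to CON 3 and at 2.24, 1.95 and 1.57 FPKM in LKO 1 to LKO 3, with its highest value in CON 3 as for Elovl6. Elovl6 and Scd1, which act in succession on the same chain, differed in where their maximum fell: CON 3 for Elovl6 and CON 1 for Scd1. The log2 ratio of Elovl6 to Scd1 was -5.40 ± 1.84 in CON and -4.36 ± 0.36 in LKO (SD, n = 3 each; exact permutation test, p = 0.7, adjusted p = 0.933). Its difference of 1.04 rested on CON 1, without which it was -0.0024.

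Elovl5 (ENSMUSG00000032349), which lengthens polyunsaturated chains between the 2 desaturation steps, was at 236.60, 165.19 and 222.10 FPKM in CON 1 to CON 3 and at 287.35, 150.24 and 198.68 FPKM in LKO 1 to LKO 3. The highest and the lowest value both fell in LKO. The log2 fold change of -0.01 (SE 0.27, 95% interval -0.64 to 0.63, limma adjusted p = 0.992) became 0.29 once median-ratio scaling was applied. Elovl5 stood 31.1 to 52.8 times above Elovl6 in CON and 51.1 to 72.0 times in LKO, a log2 difference between the groups of 0.38 (exact permutation test, p = 0.3, adjusted p = 0.6). That difference was 0.18 without CON 3 and 0.23 without LKO 1. Elovl2 (ENSMUSG00000021364), which acts on longer polyunsaturated chains on the way to docosahexaenoate, was at 140.79, 149.74 and 201.36 FPKM in CON 1 to CON 3 and at 156.48, 111.27 and 200.01 FPKM in LKO 1 to LKO 3. CON 3 and LKO 3 were nearly equal and highest. Its log2 fold change of -0.09 (SE 0.26, 95% interval -0.69 to 0.50, limma adjusted p = 0.833) became 0.20 with the same scaling.

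Elovl1 (ENSMUSG00000006390), the elongase of very long saturated chains used in sphingolipids, was at 19.09, 20.36 and 18.52 FPKM in CON 1 to CON 3 and at 15.22, 13.62 and 18.63 FPKM in LKO 1 to LKO 3. It was the steadiest member within CON, with a range of 1.10-fold. LKO 1 and LKO 2 lay below the CON range and LKO 3 just inside it, the same division of the LKO libraries as for Fads2. The log2 fold change of -0.28 (SE 0.18, 95% interval -0.69 to 0.12, limma adjusted p = 0.339) was 0.00038 after median-ratio scaling, so its direction depended on the scale.

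**Figure D4:**
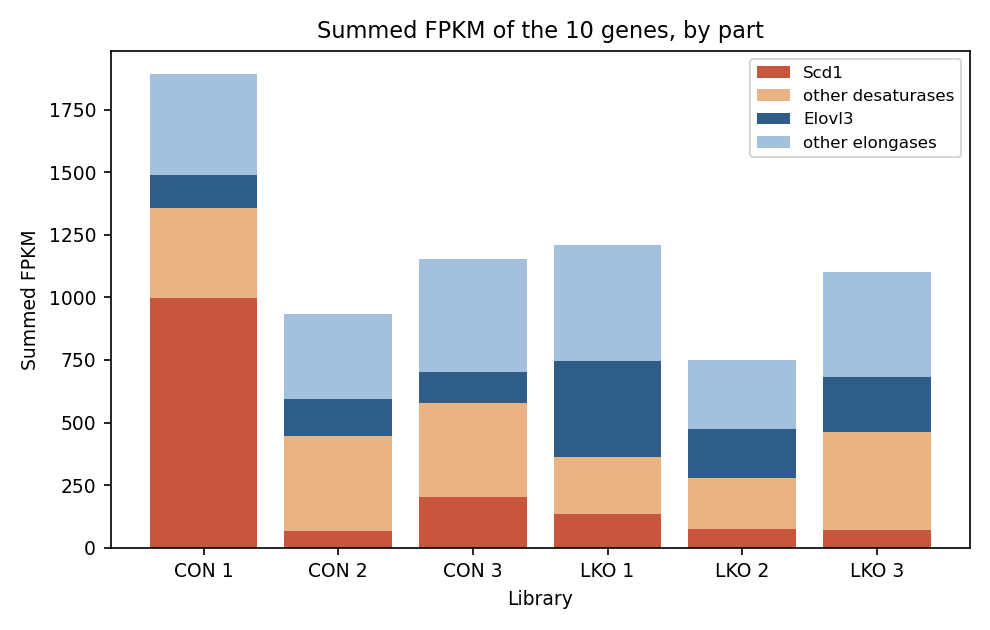
Summed FPKM of the 10 genes in each library, split into Scd1, the other 4 desaturases, Elovl3 and the other 4 elongases. Scd1 takes 52.8% of the sum in CON 1 and 6.45% to 17.6% in the other 5 libraries.

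Summed over the 10 genes, the level was 1890, 933 and 1153 FPKM in CON 1 to CON 3 and 1210, 751 and 1102 FPKM in LKO 1 to LKO 3. The CON and LKO sums overlapped. Scd1 alone gave 52.8% of the sum in CON 1, 7.31% in CON 2 and 17.6% in CON 3, and 6.45% to 11.1% in LKO. The 4 desaturases other than Scd1 summed to 357 to 378 FPKM in CON, and to 227, 207 and 390 FPKM in LKO 1 to LKO 3. The 5 elongases summed to 487 to 576 FPKM in CON and to 848, 471 and 641 FPKM in LKO 1 to LKO 3.

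Fads6 (ENSMUSG00000044788), a desaturase-domain gene of unknown substrate outside the 10, had the larger difference of the 2 relatives that could be tested. It was at 17.94, 9.22 and 8.96 FPKM in CON 1 to CON 3, at 0.06 FPKM in LKO 1, listed at 0 in LKO 2 and at 5.60 FPKM in LKO 3. All LKO libraries were below all CON libraries, and LKO 3 was nearest to them, the order also seen for Cd36. A difference of -2.70 on the log2 scale (SE 0.70) did not pass over all genes (limma adjusted p = 0.175). Without LKO 3, the LKO library with the most Fads6, it was -3.60 (adjusted p = 0.00341), in a fit where 19.0% of tested genes passed lower. With the length trend also removed it was -3.18 (adjusted p = 0.00981), where 657 of 11104 genes passed lower. Without LKO 1 it was -2.28 and without LKO 2 -2.23 (adjusted p = 0.440 and 0.438). The Fads6 promoter is shown for its difference, with its 1 GC box, starting at base -30, in capitals.
Fads6, chr11:115297513-115297812, minus strand: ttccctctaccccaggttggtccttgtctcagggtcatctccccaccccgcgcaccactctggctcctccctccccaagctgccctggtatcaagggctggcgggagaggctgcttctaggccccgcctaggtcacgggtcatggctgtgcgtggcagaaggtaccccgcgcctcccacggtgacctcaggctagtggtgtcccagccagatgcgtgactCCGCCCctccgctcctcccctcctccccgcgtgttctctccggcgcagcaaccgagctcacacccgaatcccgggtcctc
Degs1, the ceramide-forming desaturase, was at 33.71, 22.69 and 22.97 FPKM in CON 1 to CON 3 and at 16.76, 13.01 and 21.67 FPKM in LKO 1 to LKO 3 (log2 fold change -0.60, limma adjusted p = 0.214). Of the 7 listed relatives only Fads6 and Degs1 were tested. Elovl4, the elongase of retina and skin, was listed at 0 in all libraries, and Elovl7 was at 0.16 FPKM or less.

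Desaturases draw electrons from NADH through cytochrome b5 and its reductase. Of 5 tested genes of this chain 0 passed, 1 was lower at an unadjusted p under 0.05, and 2 were below CON in every LKO library (median log2 fold change -0.16). Over all tested genes these shares were 18.9% and 24.3%. Cyb5b, the cytochrome b5 of the outer mitochondrial membrane, was at 72.34, 52.00 and 47.19 FPKM in CON 1 to CON 3 and at 21.14, 15.42 and 28.95 FPKM in LKO 1 to LKO 3. LKO minus CON was -1.37 on the log2 scale (SE 0.27, limma adjusted p = 0.163), and -1.08 after median-ratio scaling. Cyb5a, the microsomal form that serves the desaturases, was at 1807 to 2003 FPKM in CON and 1893 to 2153 FPKM in LKO, with overlap (log2 fold change 0.10, adjusted p = 0.752). The reductases Cyb5r1 and Cyb5r4 were at -0.36 and -0.16 (limma adjusted p = 0.379 and 0.529), and Cyb5r3, the most abundant reductase of the list at 182 to 318 FPKM, at 0.18 (adjusted p = 0.692).

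Each elongation cycle also needs a ketoacyl reductase (Hsd17b12), a dehydratase (Hacd genes) and an enoyl reductase (Tecr). Of 5 tested partners 0 passed, and the median log2 fold change was 0.11. Hacd3 was at 90.37, 96.91 and 94.48 FPKM in CON 1 to CON 3 and at 64.98, 45.87 and 79.39 FPKM in LKO 1 to LKO 3 (log2 fold change -0.59, limma adjusted p = 0.20). Tecr lay in the other direction, at 163.18, 137.26 and 140.14 FPKM in CON 1 to CON 3 and at 186.23, 204.10 and 171.86 FPKM in LKO 1 to LKO 3 (0.35, adjusted p = 0.255). The groups overlapped in neither gene, which held downward for 24.3% and upward for 3.92% of all tested genes. After median-ratio scaling Hacd3 was at -0.30 and Tecr at 0.65. Hsd17b12 was at -0.36 (adjusted p = 0.387), with overlap.

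Fatty acid synthase and its suppliers of acetyl-CoA, malonyl-CoA and NADPH make the palmitate that these enzymes act on. Of 7 tested, Elovl6 included, 7 lay below 0 on the log2 scale, with and without median-ratio scaling, 4 were lower at an unadjusted p under 0.05, 5 were below CON in every LKO library, and 0 passed over all genes (median -0.66, and -0.45 after that scaling). Over all tested genes, 71.6% lay below 0, or 48.9% with that scaling. At that unadjusted p 18.9% were lower, and 24.3% were below CON in every LKO library. Fasn, the synthase itself, was at 16.04 to 19.95 FPKM in CON and 8.56 to 11.01 FPKM in LKO. Me1, the malic enzyme that makes NADPH, was at 33.71, 21.58 and 20.07 FPKM in CON 1 to CON 3 and at 13.35, 6.30 and 5.86 FPKM in LKO 1 to LKO 3 (log2 fold change -1.51, limma adjusted p = 0.165). Acly, ATP-citrate lyase, was at 20.47, 12.05 and 12.67 FPKM in CON 1 to CON 3 and at 3.76, 3.69 and 8.34 FPKM in LKO 1 to LKO 3 (-1.40, adjusted p = 0.166). Scd1 and Elovl6, the steps that follow, overlapped between the groups, and whether they differ in this from Fasn, Me1 and Acly was not tested.

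**Figure D5:**
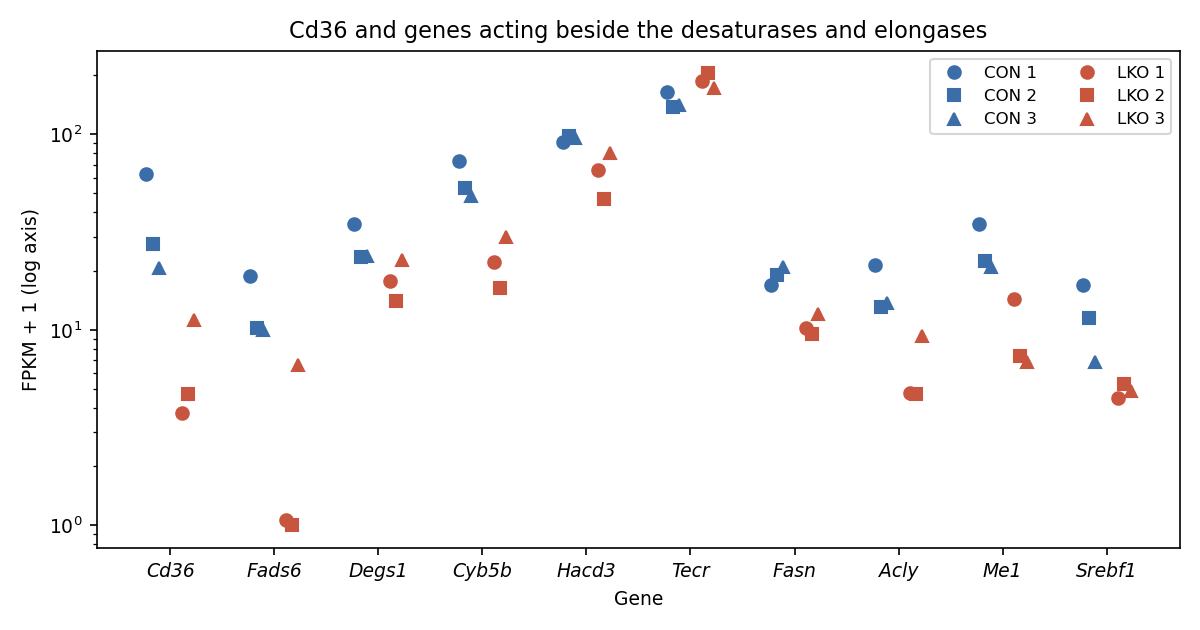
FPKM + 1 (log axis) of Cd36 and of 9 genes acting beside the desaturases and elongases, for each CON (blue) and LKO (red) library. Fads6 is near the bottom in LKO 1 and LKO 2 and at 5.60 FPKM in LKO 3, and Tecr is the only gene shown with LKO above CON in every library.

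Among 13 tested regulators, 12 lay below 0 on the log2 scale, or 8 once median-ratio scaling was applied. A total of 7 were lower at an unadjusted p under 0.05, 8 were below CON in every LKO library and 0 passed, where the shares over all tested genes were 71.6% below 0, 18.9% and 24.3%. The median was -0.74, and -0.48 after that scaling, with which 48.9% of all tested genes lay below 0. Of the 7, only Pparg, Srebf1, Thrsp and Scap, which escorts SREBP, were then still under that p, where 7.96% of all tested genes were lower. Srebf1 was at 15.91, 10.52 and 5.83 FPKM in CON 1 to CON 3 and at 3.49, 4.26 and 3.87 FPKM in LKO 1 to LKO 3. Nr1h3, which encodes LXR-alpha, a receptor known to act on Scd1 directly and through Srebf1, was at 62.53 to 64.63 FPKM in CON and 47.65 to 55.81 FPKM in LKO (log2 fold change -0.29, limma adjusted p = 0.286, and 0.01 after median-ratio scaling). The 3 with the smallest p were Pparg (-1.42), Thrsp (-1.27), a regulator of lipogenesis, and Srebf1 (-1.18), with adjusted p of 0.163 to 0.176. Within CON, Srebf1 was highest where Scd1 was highest, in CON 1, but CON 2 held the lowest Scd1 value with more Srebf1 than CON 3.

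Genes that activate fatty acids or place them in phospholipids gave no call. Of 5 acyltransferases that place such chains in phospholipids, 5 lay below 0 on the log2 scale (4 with median-ratio scaling), 3 were lower at an unadjusted p under 0.05 and 0 passed (median -0.52), beside 71.6% below 0 and 18.9% lower at that p over all tested genes. With that scaling their median was -0.23 and their smallest unadjusted limma p 0.0608, that of Lclat1. Over all tested genes 48.9% were then below 0. Lpcat3, which favours arachidonate and linoleate, was at 38.68 to 48.32 FPKM in CON and at 26.24 to 31.69 FPKM in LKO (-0.52, limma adjusted p = 0.187). Its groups did not overlap, as held downward for 24.3% of all tested genes. Lpgat1 and Lclat1, acyltransferases of glycerophospholipids, were at -0.68 and -0.83 with overlap. Of 4 tested long-chain acyl-CoA synthetases, 4 were negative, 3 after median-ratio scaling, and 0 passed (median -0.59), with Acsl5 at -0.90, Acsl3 at -0.79 and Acsl1, the main form of liver, at -0.38.

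Markers of cells other than hepatocytes gave no call. Of 8 Kupffer cell and macrophage markers, 0 passed, and their sum was 123 to 182 FPKM in CON and 91.1 to 184 FPKM in LKO. The 6 sinusoidal endothelial markers summed to 35.4 to 95.9 FPKM in CON and 47.7 to 62.7 FPKM in LKO, and the 6 stellate cell markers to 83.4 to 89.6 and 79.1 to 118 FPKM. The 5 cholangiocyte markers summed to 29.4 to 51.5 and 34.1 to 74.9 FPKM, and the 6 lymphocyte markers to 2.02 to 2.86 and 2.93 to 4.42 FPKM, where the lowest LKO library was above the highest CON library. Groups did not overlap upward for 3.92% of all tested genes. Only 3 of the cholangiocyte and 1 of the lymphocyte markers were abundant enough to be tested. None of the 7 hepatocyte markers passed. Their sum was 55309 to 77238 FPKM in CON and 48769 to 58852 FPKM in LKO. It was highest in CON 1, as was Alb (45751 FPKM, against 16410 to 28575 FPKM elsewhere), which weighs heavily in it. Ttr and Cyp2e1 were also highest in CON 1, and Apoa1, Cps1, Serpina1c and Tat were not. Apoa1 was lowest in CON 1 (9739.5 FPKM) and at 16036 to 20480 FPKM in LKO, above every CON library. Of the 7 markers 6 lay below 0 on the log2 scale, where 71.6% of all tested genes did. The part of cell composition in the differences above was not tested.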

How the data were processed

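Liver RNA was sequenced in 6 libraries, and 1 matrix with FPKM and a gene length was deposited. Per the submitters' processing notes the authors used HISAT2, StringTie and the build mm9. Their versions, and whether counting used strand, are not stated there. The deposited lengths equal those of GENCODE M21, an annotation of GRCm38 and not of mm9, for 10 of the 10 genes. Which build the values rest on is thus not settled. The FPKM values deposited are rounded to 2 decimals. Of 56534 genes and loci, 55536 have Ensembl identifiers and 998 are assembled loci, and 2 lines hold no values. Whole reads were not recovered: the best step left 24.1% to 25.8% of low values whole within 0.1 of a read. The depth in reads is therefore unknown and no count model was used.

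From these values, log2(FPKM + 1) was tested with limma 3.58.1 in R 4.3.3, with a variance trend and no covariates, for 11104 genes with a mean of at least 1 FPKM. P-values were two-sided, with Benjamini-Hochberg adjustment over all of them and a threshold of 0.05. The 4 ratios between members were compared by exact permutation. The fit was tested on simulated data. Members and lists were chosen with earlier results of these data known. Named were all members, Cd36, up to 3 genes a list with the smallest p, and the 3 genes nearest to Scd1, Fads2 and Elovl6. Dbp, Arntl, Cyp7b1, Cyp2d9, Nr1h3, Scap, Acaca, Slc25a1, Cyb5a, Cyb5r3, Alb and genes named as near 0 were chosen after their values were seen. The result of 1 further gene list is not reported here.

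Alternatives were another pseudocount, other filters, scalings and weights, removal of the length trend or of the urinary protein and mitochondrial genes, a replicate block and leaving out each library. Gene-by-gene weights, and the length trend or the scaling combined with leaving out LKO 3, were added after seeing the data.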

Additional observations from a re-analysis of the deposited data

How the results depend on the processing

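With 3 libraries a group and no read depth, only differences well above the spread between libraries can pass. The cause of the changes below was not tested. The count of genes past the threshold, 1, was 0 with a pseudocount of 0.1, no filter, a filter at 5 FPKM or the length trend removed, 5864 with array weights, whose default fit did not converge, and 3072 with gene-by-gene weights. It was 0 to 2626 when single libraries were left out, and without LKO 3 was 1345 with the length trend removed and 2182 with median-ratio scaling. Members past the threshold, 0, became 5 and 2 with these weights, 0 to 2 when single libraries were left out, with 2 without LKO 3, and 1 without LKO 3 after median-ratio scaling. The array weights were 13.8 for LKO 1 and 0.196 to 1.53 for the other libraries. Gene by gene they were 2.75 for LKO 1 and 0.283 to 2.08 for the others. The members' median, -0.28, was 0.00038 with median-ratio scaling, -0.0652 with quantile normalization and -0.0612 with the length trend removed. It was -0.36 to -0.13 when single libraries were left out, and without LKO 3 was 0.0627 with the length trend removed and -0.0471 with median-ratio scaling.

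Scd1, Fads1, Fads2 and Elovl3 kept their direction under all 19 alternatives. Fads3 turned to -0.12 without CON 3 and -0.09 without LKO 2, and ran from -0.12 to 0.18 when single libraries were left out, as Elovl2 did from -0.29 to 0.13 and Elovl5 from -0.25 to 0.22. Elovl1 turned to 0.00038 with median-ratio scaling. Elovl2 turned to 0.20 with that scaling, 0.0287 with quantile normalization, 0.22 with the length trend removed, 0.06 without CON 3 and 0.13 without LKO 2, and without LKO 3 to 0.11 with the length trend removed and 0.0779 with the scaling. Elovl5 turned to 0.29, 0.0758 and 0.26 in the first 3 of these, to 0.49 with array weights and 0.33 gene by gene, to 0.10, 0.05, 0.22 and 0.02 without CON 1, CON 3, LKO 2 and LKO 3, and to 0.34 and 0.39 in the last 2. Elovl6 turned to 0.0627 without LKO 3 and the length trend. The log2 ratio of Fads1 to Fads2, -0.01, was 0.0012 with the length trend removed and -0.30 to 0.35 when single libraries were left out, among them 0.24 without CON 1, 0.03 without CON 2 and 0.35 without LKO 3. That of Elovl6 to Scd1 was -0.0024 to 1.71, the lowest without CON 1.

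The deviations of libraries with the same number correlated at -0.05, 0.17 and 0.07 over genes, so the numbers were not taken to pair the libraries. With a replicate block, 0 genes and 0 members passed.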
